A study of Mus musculus with 6 samples.

Results

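Tubulins are the globular proteins that pair, an alpha subunit with a beta subunit, into the building block of microtubules. The 10 genes described here encode 5 alpha isotypes (Tuba1a, Tuba1b, Tuba1c, Tuba4a and Tuba8) and 5 beta isotypes (Tubb2a, Tubb2b, Tubb4b, Tubb5 and Tubb6). They were taken by symbol, as genes of one family and with earlier results of these data known, and all 10 were found among the 55802 rows of the count table. The libraries come from the livers of C57BL/6 mice of genotype WT, with 3 libraries from mice given oil (controls) and 3 from mice given CCl4, carbon tetrachloride, a solvent that hepatocytes turn into a toxic radical and that is used to bring about liver injury. All groups share strain, genotype and tissue, and age, sex, dose and duration are not stated in the labels. Whether each library is a mouse of its own is not stated either. The p-values therefore measure the spread between these libraries, part of which may be technical.

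Microtubules carry organelles and secretory vesicles through the hepatocyte, and they form the mitotic spindle when a cell divides. The isotypes of each class differ mostly in their carboxy-terminal tails, which are the sites of many enzymatic modifications, and cell types use them in different mixtures. Tubulin messages are also held in check by the amount of free tubulin subunits, which marks the messages for decay while they are being translated.

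Library totals ran from 18929972 to 20042731 counts. The label of the tissue was checked against 8 hepatocyte genes, whose summed level was 96071 to 102196 CPM (counts per 1000000 after scaling of the libraries) in controls and 100425 to 109540 CPM in CCl4 livers, with none of the 8 at 0. Alb, the albumin gene, made up most of this sum. Of the 8, Ttr and Hpx were called higher and Apoh, Serpina1c and Cps1 lower, so 2 were higher and 3 lower. CCl4 replicate 3 stood apart from the other libraries. In it, 38 tested genes were above 1 CPM and lay more than 3-fold above every other library, against 0 to 2 genes in each of the other libraries. Genes typical of nervous tissue were among them, so 19 such genes were listed after these values were seen. Their summed level was 114 CPM in CCl4 replicate 3 and 25.98 to 31.3 CPM in the other 5 libraries, and 17 of the 19 were highest in CCl4 replicate 3. Mbp, a myelin protein gene, stood at 15.6 CPM there and at 1.33 to 4.06 CPM elsewhere. Cell cycle genes were lower in that library than in the other CCl4 libraries for 27 of 28 genes. Member results are therefore also given without CCl4 replicate 3.

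In the CCl4 livers 7 of the 10 isotypes were higher, 1 was lower and 2 were not called. A gene is called here when its Benjamini-Hochberg adjusted p in edgeR's quasi-likelihood test was under 0.05 over all 15579 genes tested. Of all genes tested, 41.3% were called, 21.2% as higher and 20.1% as lower, so that 8 of 10 members called and 7 of 10 called higher stand beside shares that are themselves large. For 8 of the 10 members, and for 54% of all genes tested, all CPM values of one group lay above all of the other. The median log2 fold change (CCl4 over control) was 0.59 over the members and 0.00056 over all genes tested. Tubb6 rose most, by 1.78 on the log2 scale, and Tuba4a was the isotype that fell. Scaling by library size alone split the calls over all genes into 4824 higher and 1676 lower, against 3303 and 3124 with the scaling used, and upper quartile scaling into 4103 and 2177. The members' split was 7 to 1 under both. Without CCl4 replicate 3, again 7 members were called higher and 1 lower. In whole liver, a change in the number of cells of a type and a change in RNA per cell cannot be told apart.

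**Figure D1:**
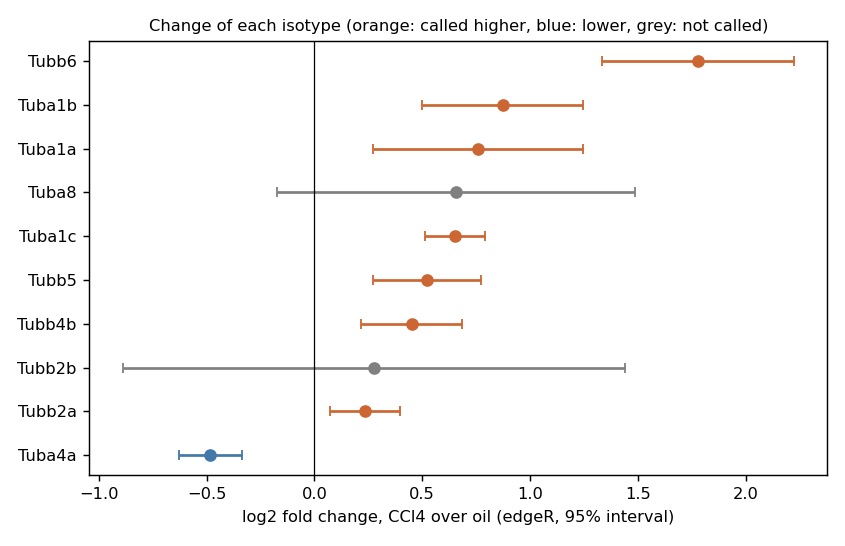
Log2 fold change of each isotype, CCl4 over oil, with a 95% interval computed from the F statistic of edgeR's test. Tubb6 lies farthest to the right at 1.78, Tuba4a lies left of 0 at -0.48, and the wide intervals of Tuba8 and Tubb2b cross 0.

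The stretches of 250 bases before the transcription start are printed for 5 members. Tubb4b, Tubb5 and Tubb2a rose and were lowest among the CCl4 libraries in replicate 3, Tubb2a only barely (97.2 CPM against 98.0 in replicate 1). These 3 show many, few and no matches to the motifs searched. Tuba1c rose without that order, and Tuba4a fell. The printed stretches are RefSeq sequences of build GRCm38.p6, written 5′ to 3′ on the strand of the gene. The starts of Tubb4b, Tuba1c and Tuba4a are also transcript starts in GENCODE M21. That of Tubb5 was found inside a GENCODE transcript, and that of Tubb2a in none, so its stretch is less certain. Capitals mark the letters CCAAT on either strand (the box bound by the factor NF-Y) and TTTGAA on either strand (letters of the cell cycle homology region found before many mitotic genes).
Tubb4b (chr2:25224703-25224952, minus strand): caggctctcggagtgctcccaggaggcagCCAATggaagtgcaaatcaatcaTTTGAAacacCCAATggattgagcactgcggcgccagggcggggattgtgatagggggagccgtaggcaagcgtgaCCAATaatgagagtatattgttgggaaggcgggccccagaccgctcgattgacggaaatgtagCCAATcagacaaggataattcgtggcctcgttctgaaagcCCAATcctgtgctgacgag
Tubb5 (chr17:35838302-35838551, minus strand): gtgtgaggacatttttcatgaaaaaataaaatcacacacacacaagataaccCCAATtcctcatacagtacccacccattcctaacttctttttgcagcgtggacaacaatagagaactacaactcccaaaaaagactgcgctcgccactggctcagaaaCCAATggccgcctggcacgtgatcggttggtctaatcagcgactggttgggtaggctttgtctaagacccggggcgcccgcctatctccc
Tubb2a (chr13:34078009-34078258, minus strand): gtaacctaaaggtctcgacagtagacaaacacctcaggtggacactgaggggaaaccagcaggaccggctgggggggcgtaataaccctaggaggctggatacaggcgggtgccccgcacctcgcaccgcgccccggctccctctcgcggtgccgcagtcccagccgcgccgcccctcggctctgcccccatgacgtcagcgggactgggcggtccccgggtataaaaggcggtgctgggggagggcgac
Tuba1c (chr15:99029641-99029890, plus strand): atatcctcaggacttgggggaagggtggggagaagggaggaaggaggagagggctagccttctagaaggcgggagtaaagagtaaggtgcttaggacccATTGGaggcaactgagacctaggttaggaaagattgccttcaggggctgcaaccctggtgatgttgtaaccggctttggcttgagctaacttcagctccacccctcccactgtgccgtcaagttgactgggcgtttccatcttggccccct
Tuba4a (chr1:75219295-75219544, minus strand): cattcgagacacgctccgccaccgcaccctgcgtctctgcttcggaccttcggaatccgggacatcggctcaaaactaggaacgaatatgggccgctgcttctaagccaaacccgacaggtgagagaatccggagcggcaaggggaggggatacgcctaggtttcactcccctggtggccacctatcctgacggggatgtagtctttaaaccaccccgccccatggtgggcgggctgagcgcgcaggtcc

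Promoters of 8 of the 10 members were analysed here, by their RefSeq starts. For Tuba1a, Tuba1b and Tuba8 that start was found inside a GENCODE transcript but was not a GENCODE start. Those of Tubb2b and Tubb6 were not, so the counts below leave out the member that rose most. CCAAT was found in 4 of the 8 (Tuba1a, Tuba1c, Tubb4b and Tubb5), and in 33.8% of all 32851 promoter stretches of the same length. Tubb4b held 5 copies, beginning 221, 188, 122, 59 and 19 bases before the start, and 0.213% of all promoter stretches held 5 or more. Tubb5 held 2 copies, at 198 and 90 bases, as did or exceeded 10.1% of all stretches. In Tuba1c the match lay on the opposite strand, read as ATTGG, at 151 bases. TTTGAA was found in Tubb4b alone, at 198 bases, and in 15.99% of all stretches. TTCCCGC, a core of E2F sites, was searched on both strands and was found in 0 of the 8 and in 3.82% of all stretches. No match shared letters with a match of another kind. Tuba4a, which fell, and Tuba8, which was not called, held no match to any of the 3. Nor did Tuba1b and Tubb2a, which rose and were lowest of the CCl4 libraries in replicate 3, Tubb2a only barely. These matches describe letters only, and no binding was measured.

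Among the alpha isotypes, Tuba1a, Tuba1b and Tuba1c rose and Tuba4a fell. Tuba1b (ENSMUSG00000023004), an isotype made in most cell types, stood at 30.6, 29.6 and 27.5 CPM in control replicates 1, 2 and 3 and at 54.3, 64.6 and 41.6 CPM in the CCl4 ones. All CCl4 libraries lay above all controls, with CCl4 replicate 3 the lowest of them. This was a 1.83-fold rise with a 95% interval of 1.41 to 2.37 (log2 fold change 0.87, SE 0.16, edgeR adjusted p = 0.00450). Without CCl4 replicate 3 the log2 fold change was 1.02.

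Tuba1c (ENSMUSG00000043091), its close relative, had the smallest adjusted p of the members. It stood at 58.1, 56.4 and 52.9 CPM in controls and at 81.8, 91.2 and 89.8 CPM in CCl4 livers. The CCl4 libraries lay close together, and replicate 3 was not the lowest. It rose 1.57-fold, with an interval of 1.42 to 1.73 (log2 fold change 0.65, SE 0.06, edgeR adjusted p = 5.94e-05). Without CCl4 replicate 3 that value was 0.63.

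Tuba1a (ENSMUSG00000072235), the alpha isotype best known from developing neurons, was far less abundant. It stood at 5.06, 3.46 and 4.56 CPM in controls and at 5.34, 7.72 and 9.09 CPM in CCl4 livers. The groups did not overlap, but CCl4 replicate 1 was only just above control replicate 1, and CCl4 replicate 3, in which the nervous tissue genes were raised, was the highest. Its log2 fold change of 0.76 (SE 0.22, edgeR adjusted p = 0.0200) became 0.58 without CCl4 replicate 3 (adjusted p = 0.0414). Leaving out control replicate 2 or 3, or CCl4 replicate 2, ended the call, with adjusted p between 0.0586 and 0.0676.

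Tuba4a (ENSMUSG00000026202), which does not encode the terminal tyrosine found on most alpha tubulins, was the alpha isotype with the most counts. It went from 158, 141 and 163 CPM in controls to 107, 110 and 113 CPM in CCl4 livers. Every CCl4 library lay below every control, and the CCl4 libraries differed from each other by less than the controls did. The fall was 1.40-fold, with an interval of 1.26 to 1.55 (log2 fold change -0.48, SE 0.07, edgeR adjusted p = 3.91e-04). Without CCl4 replicate 3 the log2 value was -0.50. In the GENCODE M21 annotation Tuba4a overlaps Stk16, a kinase gene on the opposite strand, and 34.6% of the 50-base windows of its transcripts occur in Stk16 transcripts. No source used here gives the strand setting of the counting, and reads from this overlap cannot be assigned with certainty. Mean levels of Stk16 were 65.7 ± 1.39 CPM with oil and 58.9 ± 2.85 CPM with CCl4 (± is the SD of 3 libraries, here and below), a log2 fold change of -0.16. Stk16 was called lower (edgeR adjusted p = 0.0458), but only 2 of 14 alternative settings kept that call.

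Tuba8 (ENSMUSG00000030137), an isotype of restricted expression, was not called. It stood at 2.87, 2.65 and 2.39 CPM in controls and at 2.77, 2.97 and 6.73 CPM in CCl4 livers. CCl4 replicates 1 and 2 lay within or just above the control range, and replicate 3 lay apart from all other libraries. Over all libraries the log2 fold change was 0.66 (95% interval -0.17 to 1.49, edgeR adjusted p = 0.181), and it was 0.12 without CCl4 replicate 3 (adjusted p = 0.645). The nervous tissue genes were raised in that same library, and their part in its Tuba8 level was not tested.

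**Figure D2:**
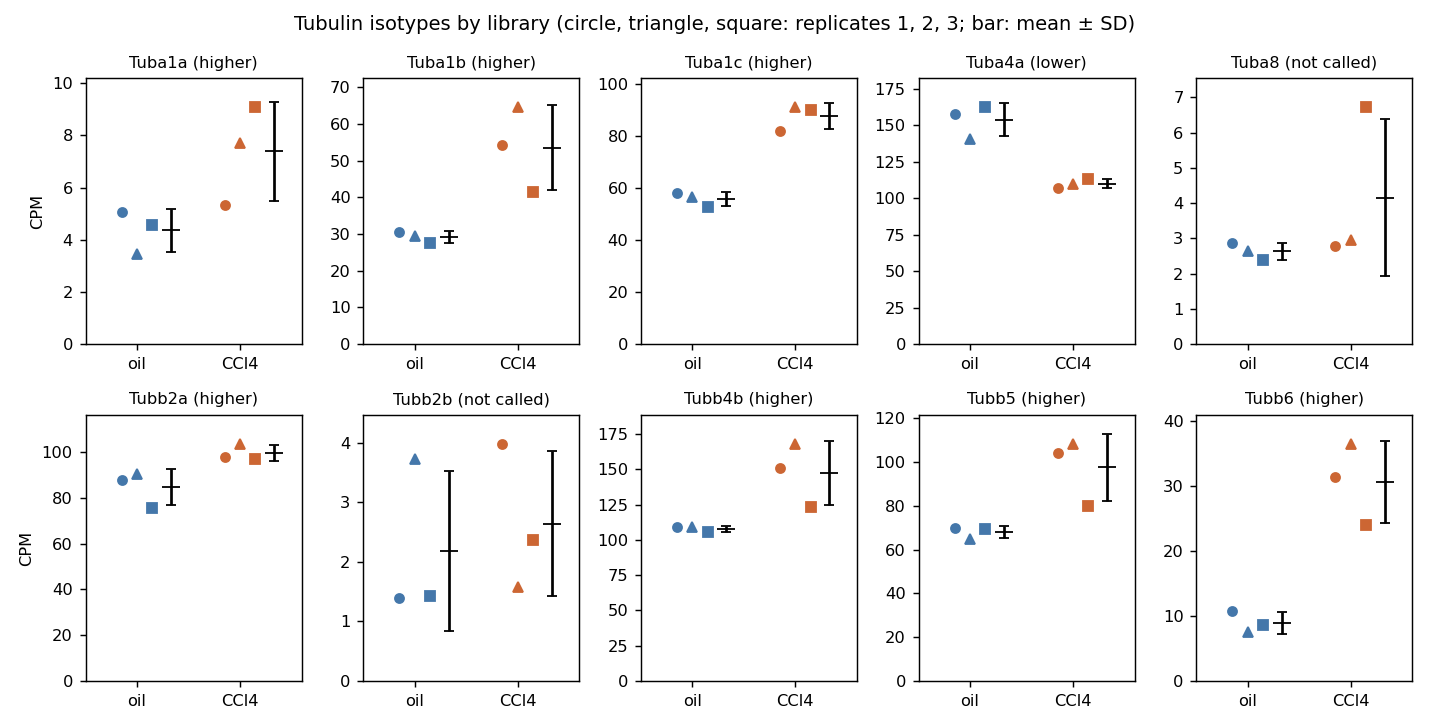
CPM of the 10 isotypes in each library (circles, triangles and squares are replicates 1, 2 and 3), with mean ± SD of the 3 libraries. Tuba4a falls from 141 to 163 CPM in oil to 107 to 113 CPM, Tubb6 lies at 24.0 CPM or above in CCl4 livers and at 10.7 CPM or below in oil, and a single CCl4 library lifts Tuba8.

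Among the beta isotypes, 4 of 5 rose and none fell. Tubb6 (ENSMUSG00000001473), a beta isotype of low abundance in control liver, stood at 10.7, 7.46 and 8.59 CPM in controls and at 31.4, 36.5 and 24.0 CPM in CCl4 livers. The lowest CCl4 library was more than 10 CPM above the highest control. It rose 3.43-fold, with an interval of 2.52 to 4.67 (log2 fold change 1.78, SE 0.19, edgeR adjusted p = 3.66e-04), and the log2 value was 1.93 without CCl4 replicate 3. Of the 15579 genes tested, 632 (4.06%) had a larger log2 fold change.

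Tubb5 (ENSMUSG00000001525), a beta isotype prominent in dividing cells, stood at 69.6, 65.0 and 69.2 CPM in controls and at 104, 108 and 80.1 CPM in CCl4 livers. Replicate 3 lay between the controls and the other CCl4 libraries. The rise was 1.44-fold, with an interval of 1.21 to 1.71 (log2 fold change 0.52, SE 0.11, edgeR adjusted p = 0.00619). Its log2 value was 0.64 without CCl4 replicate 3.

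Tubb4b (ENSMUSG00000036752), a widely expressed isotype that also builds the axoneme of cilia, had the most counts of the beta members. It stood at 109, 109 and 106 CPM in controls and at 151, 168 and 123 CPM in CCl4 livers. The controls lay within a few CPM of each other, and all CCl4 libraries lay above them. Tubb4b rose 1.37-fold, with an interval of 1.16 to 1.61 (log2 fold change 0.45, SE 0.10, edgeR adjusted p = 0.00783), and its log2 value was 0.56 without CCl4 replicate 3.

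Tubb2a (ENSMUSG00000058672), an isotype best known from neurons, showed the smallest rise. It stood at 87.8, 90.6 and 75.6 CPM in controls and at 98.0, 104 and 97.2 CPM in CCl4 livers. The groups did not overlap, yet the range of the controls was about as large as the gap between the group means. The rise of 1.18-fold had an interval of 1.05 to 1.32 (log2 fold change 0.24, SE 0.07, edgeR adjusted p = 0.0265), and the log2 value was 0.25 without CCl4 replicate 3. Leaving out control replicate 1 or 3, or CCl4 replicate 1 or 2, ended the call, with adjusted p between 0.0518 and 0.0983. Without control replicate 3 the log2 value was 0.15.

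Tubb2b (ENSMUSG00000045136), the neighbour and near-copy of Tubb2a, was scarce and was not called. It stood at 1.38, 3.73 and 1.43 CPM in controls and at 3.98, 1.58 and 2.36 CPM in CCl4 livers. The groups overlapped over most of their range. A log2 fold change of 0.28 had a 95% interval of -0.89 to 1.44 (edgeR adjusted p = 0.689) and rested on 281 counts over all libraries. It ran from -0.14 to 0.90 as single libraries were left out, negative without CCl4 replicate 1.

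Several of these genes share long identical stretches, which bears on how far their values can be told apart. In GENCODE M21, 75.5% of the 50-base windows of Tuba1a transcripts, 75.1% of those of Tuba1b and 52.7% of those of Tuba1c also occur in a transcript of another gene, mostly of this trio and its pseudogenes. For Tubb2a and Tubb2b the shares were 49.6% and 36.9%, mostly with each other. For Tubb4b it was 41.3%, mostly with the pseudogene Tubb4b-ps1, which itself held 1.65 ± 0.428 CPM with oil and 2.02 ± 0.244 CPM with CCl4. For Tubb5 it was 0.0892%, and for Tubb6 it was 0 of 2388 windows. No source used here says how reads that match several genes were treated, and the separate values of Tuba1a, Tuba1b and Tuba1c and of Tubb2a and Tubb2b are uncertain. Those of Tubb5 and Tubb6 are not touched by shared sequence of this length beyond the share given.

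Levels were compared between isotypes as CPM per kb of exon, with exon lengths from GENCODE M21. In controls the order from the top was Tubb2a (52.6 ± 4.93 CPM per kb), Tubb4b (51.7 ± 1.02), Tuba4a (41.6 ± 3.08), Tuba1c (24.4 ± 1.17), Tubb5 (20.4 ± 0.771), Tuba1b (15.6 ± 0.827), Tubb6 (3.66 ± 0.676), Tuba1a (2.42 ± 0.454), Tuba8 (1.16 ± 0.108) and Tubb2b (0.951 ± 0.584). Tubb2a and Tubb4b overlapped, as did Tuba8 and Tubb2b, and all other neighbours were apart. In CCl4 livers the order was Tubb4b (70.7 ± 10.9 CPM per kb), Tubb2a (61.9 ± 2.23), Tuba1c (38.3 ± 2.21), Tuba4a (29.7 ± 0.844), Tubb5 (29.3 ± 4.59), Tuba1b (28.5 ± 6.15), Tubb6 (12.6 ± 2.58), Tuba1a (4.09 ± 1.05), Tuba8 (1.84 ± 0.986) and Tubb2b (1.15 ± 0.534). Per kb, Tuba1c thus stood above Tuba4a in every CCl4 library and below it in every control. This crossing rests on the length scaling. In CPM, Tuba4a stayed above Tuba1c in CCl4 replicates 1, 2 and 3 (107, 110 and 113 against 81.8, 91.2 and 89.8). Both genes also carry the doubt from shared sequence given above. Tuba4a, Tubb5 and Tuba1b, each apart from its neighbours in controls, had overlapping levels in CCl4 livers, as had Tubb4b and Tubb2a at the top. At the bottom, Tuba8 overlapped both Tuba1a and Tubb2b, which were apart from each other. Tuba8 reached Tuba1a only barely, at 2.97 CPM per kb in CCl4 replicate 3 against 2.96 for Tuba1a in CCl4 replicate 1.

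The make-up of the alpha and beta pools differed between the groups. Per kb, Tuba4a held 48.3, 46.7 and 51.5% of the alpha members in controls and 29.6, 27.1 and 30.6% in CCl4 livers. Its share was 19.7 points lower in CCl4 livers, and the groups did not overlap. Tuba1b went from 18.3 ± 1.06% to 27.7 ± 4.92% and Tuba1c from 28.7 ± 1.57% to 37.4 ± 1.605%, also without overlap. Among the beta members Tubb6 went from 2.83 ± 0.501% to 7.10 ± 0.692% without overlap. The shares of Tubb4b (40.0 ± 1.08% and 40.1 ± 1.73%) and Tubb5 (15.8 ± 1.13% and 16.6 ± 0.959%) overlapped between groups. That of Tubb2a (40.6 ± 2.05% and 35.5 ± 3.16%) overlapped too, with a difference of -5.12 points against 4.27 for Tubb6. Each share that did not overlap had p = 0.1 in a two-sided exact permutation test, the smallest that 3 against 3 libraries can give, and an adjusted p of 0.25 over the 10 shares. These shares do not depend on how the libraries were scaled.

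**Figure D3:**
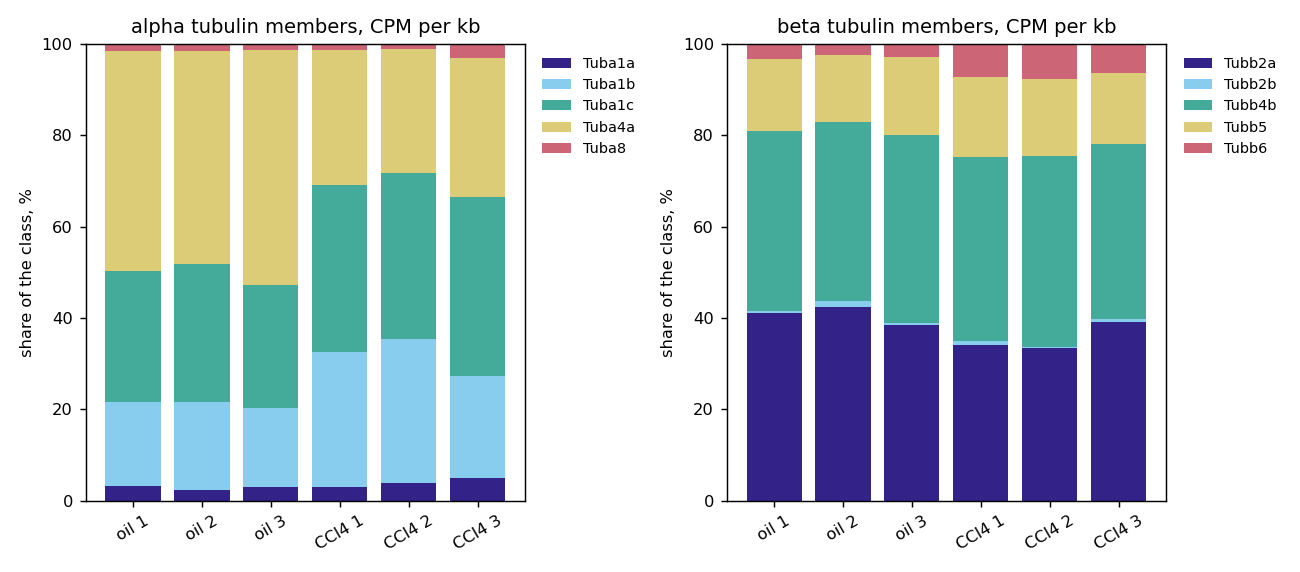
Share of each isotype in its class, from CPM per kb, in each of the 6 libraries. The Tuba4a band takes 46.7% or more of the alpha members in every oil library and 30.6% or less in every CCl4 library, and the Tubb6 band widens from at most 3.30% to at least 6.37% of the beta members.

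Summed over its 5 members, the beta pool stood at 279, 276 and 260 CPM in controls and at 389, 419 and 327 CPM in CCl4 livers. The groups did not overlap, with a log2 difference of 0.48 (two-sided exact permutation p = 0.1). The alpha pool stood at 255, 233 and 249.9 CPM in controls and at 251, 276 and 260 CPM in CCl4 livers. These groups overlapped, with a log2 difference of 0.10 (exact permutation p = 0.2), and per kb the difference was 0.27, with no overlap between 81.6 to 88.4 and 97.8 to 109.6 CPM per kb. Without Tuba4a the other 4 alpha members summed to 92.0 ± 4.63 CPM in controls and 153 ± 12.1 in CCl4 livers, a log2 difference of 0.73 (exact permutation p = 0.1). The log2 ratio of beta to alpha counts was 0.145 ± 0.0925 in controls and 0.519 ± 0.166 in CCl4 livers, a difference of 0.37 (exact permutation p = 0.1). Per kb that difference was 0.17, and the groups overlapped. Without CCl4 replicate 3 the count-based differences were 0.57 for the beta pool, 0.10 for the alpha pool and 0.47 for the ratio. The alpha pool difference was 0.058 without control replicate 2 and also without CCl4 replicate 2.

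Within the CCl4 group, replicate 2 was highest for 6 of the 7 isotypes that rose and replicate 3 was lowest for 5 of them. Mki67, a marker of cycling cells, stood at 4.52, 5.67 and 3.66 CPM in controls and at 66.0, 65.7 and 32.4 CPM in CCl4 livers. All 28 cell cycle genes listed were called higher in CCl4 livers, with a median log2 fold change of 3.05, and their summed level was 82.0 to 101 CPM in controls and 491, 542 and 305 CPM in CCl4 replicates 1, 2 and 3. Tuba1b, Tubb2a, Tubb4b, Tubb5 and Tubb6 had the same order of CCl4 libraries as this sum, and Tuba1a, Tuba1c, Tuba4a, Tuba8 and Tubb2b had another. For Tubb2a, CCl4 replicates 1 and 3 were nearly tied, at 98.0 and 97.2 CPM. Its counts before scaling were 1944 and 1978, in the opposite order. Mcm6, a subunit of the replicative helicase, rose by 1.94 and Cdc20, an activator of the anaphase-promoting complex, by 4.79 on the log2 scale. Replicate 3 also stood apart over all genes, as given above, and the share of all genes with this order is not given here. With 3 libraries this order is a description, and the part of cycling cells in the tubulin levels was not tested.

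**Figure D4:**
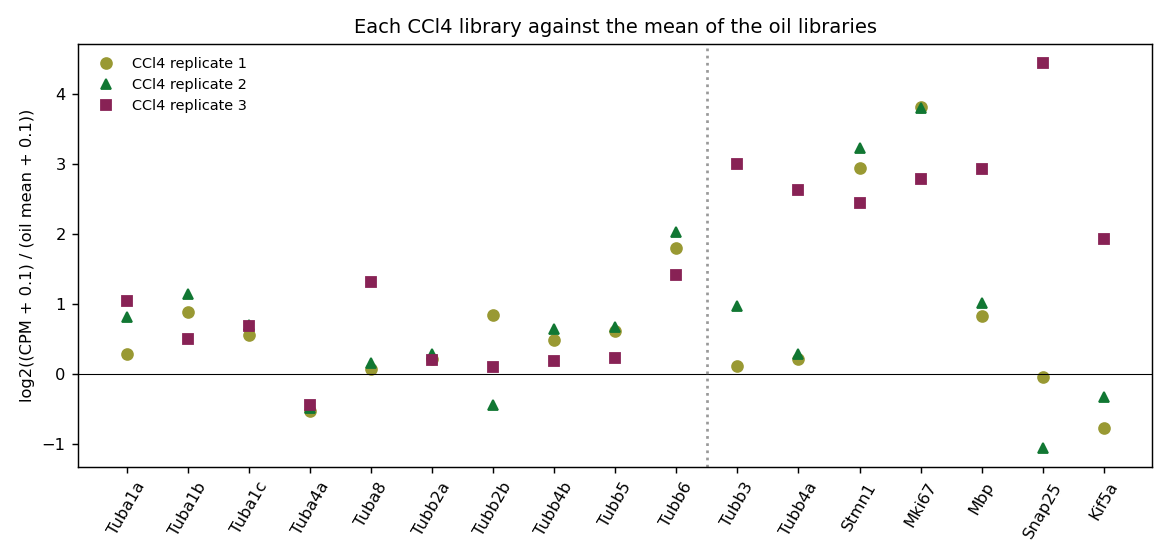
Each CCl4 library against the mean of the oil libraries, as a log2 ratio of CPM with 0.1 CPM added to both, for the isotypes (left of the dotted line) and for genes of nervous tissue and of the cell cycle. Replicate 3 is lowest for Tuba1b, Tubb2a (only barely), Tubb4b, Tubb5, Tubb6, Stmn1 and Mki67. It lies far above the others for Tuba8, Tubb3, Tubb4a, Mbp, Snap25 and Kif5a.

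Markers of other liver cells moved as well. Of 8 macrophage markers, 6 were higher and 0 lower, with a summed level of 266 to 339 CPM in controls and 696 to 775 CPM in CCl4 livers. Of 8 markers of stellate cells and myofibroblasts, 6 were higher and 0 lower (236 to 284 and 836 to 906 CPM). Of 6 tested cholangiocyte markers, 5 were higher and 0 lower (10.3 to 19.99 and 31.5 to 39.5 CPM), and of 5 tested neutrophil markers all 5 were higher (4.35 to 5.91 and 18.7 to 22.1 CPM). Of 8 endothelial markers, 0 were higher and 1 lower (294 to 306 and 285 to 307 CPM), and of 7 tested lymphocyte markers 1 was higher (9.91 to 11.8 and 10.4 to 12.8 CPM). Among these lists, 1 neutrophil marker was at 0 in all controls. The part of these cells in the tubulin levels was not tested.

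Genes of closest pattern over the 6 libraries were searched for 3 members, those of smallest adjusted p, and differed between these members. Closeness was the root mean square difference of log2 CPM, each gene centred on its own mean, among 8261 genes of at least 10 CPM. For Tubb6 they were Cd68 (0.166), a lysosomal protein of macrophages, Vim (0.182), the intermediate filament of mesenchymal cells, and Col6a2 (0.184), a chain of type VI collagen. For Tuba1c they were Srxn1 (0.0439), the reductase of overoxidised peroxiredoxins, Nudcd2 (0.0510) and Pea15a (0.0601). For Tuba4a they were Aadac (0.0295), an esterase of the hepatocyte endoplasmic reticulum, Hibadh (0.0300), a mitochondrial enzyme of valine breakdown, and Hyal2 (0.0307), a hyaluronidase. Aadac stood at 677, 618 and 697 CPM in controls and at 485, 491 and 502 CPM in CCl4 livers. As these genes were picked by closeness over the same 6 libraries, a like order of libraries follows from the search. The cells that the transcripts came from were not tested.

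Of 10 other tubulin genes listed, 4 passed the filter on low counts, and 0 were called by edgeR at an adjusted p under 0.05, with 1 at an unadjusted p under 0.05 and 1 called by DESeq2. Tubg1, the gamma tubulin that starts new microtubules, averaged 23.9 ± 1.25 CPM with oil and 23.2 ± 1.16 CPM with CCl4 (log2 fold change -0.04, 95% interval -0.21 to 0.12). That value was 0.043 with upper quartile scaling and 0.10 with library size alone, also not called. Tubd1, delta tubulin of centrioles, had a log2 fold change of 0.33 (edgeR adjusted p = 0.0906) and was called higher with upper quartile scaling and with library size alone. Tubb4a, a beta isotype of the brain, had 58 counts in 5 libraries together and 80 in CCl4 replicate 3 alone. DESeq2 called it higher, edgeR did not (adjusted p = 0.166). Tubb3, the beta isotype of neurons, had 23 and 43. Both were thus highest in the library in which the nervous tissue genes were raised. Tubb1, the beta isotype of platelets, had 1 to 6 counts per library and was not tested. Tuba3b and Tubal3 had 0 counts in every library, which allows levels of up to 0.1497 to 0.158 CPM (3 counts of the library total, for counting error only).

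The folding list held 22 genes (chaperonin CCT, prefoldin and tubulin cofactors, and also Arl2 and Ttc5). Of these, 5 were called higher, 2 lower and 15 in neither direction. That is 22.7% higher and 9.09% lower, beside 21.2% and 20.1% of all genes tested, and the median log2 fold change was 0.08. Arl2 and Ttc5, counted in these shares though they are not chaperonin, prefoldin or cofactor genes, were not called (edgeR adjusted p = 0.940 and 0.116). Vbp1, a prefoldin subunit, stood at 14.2, 13.9 and 13.9 CPM in controls and at 22.5, 22.7 and 17.3 CPM in CCl4 livers (log2 fold change 0.57, SE 0.11, edgeR adjusted p = 0.00258), and kept its call in all 14 alternative settings. Cct4, a chaperonin subunit, had a log2 fold change of 0.17 (adjusted p = 0.0209). Pfdn2, another prefoldin subunit, had one of -0.23 (adjusted p = 0.0228). Cct4 lost its call without any one of the 3 controls or without CCl4 replicate 2, and Pfdn2 without control replicate 2 or 3 or CCl4 replicate 1 or 2. Without control replicate 1, 2 or 3 or CCl4 replicate 1 or 2, the list had 1 to 2 genes higher. It also depended on the scaling, with 10 higher and 0 lower with upper quartile scaling and 13 higher and 0 lower with library size alone, while DESeq2 called 1 higher and 0 lower.

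Of 16 tested genes listed for tubulin modification, not all of them enzymes, 3 were called higher, 4 lower and 9 in neither direction. The shares of 18.75% higher and 25% lower lay near those of all genes (21.2% and 20.1%), and the median log2 fold change was -0.10. Ttll4, a glutamylase, stood at 37.6, 38.9 and 34.6 CPM in controls and at 29.0, 26.7 and 25.6 CPM in CCl4 livers (log2 fold change -0.45, SE 0.07, adjusted p = 9.42e-04). Ttll5, also a glutamylase, fell by 0.60 on the log2 scale, and Ttll7, of the same family, rose by 1.07. Ttll7 was highest in CCl4 replicate 3, at 4.57 CPM against 2.77 and 2.52 CPM in the other CCl4 libraries. The list had 1 gene higher when control replicate 1 or 3 or CCl4 replicate 3 was left out, and also 1 with DESeq2.

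Of 18 genes of microtubule nucleation, 2 were called higher, 2 lower and 14 in neither direction, or 11.1% each way beside 21.2% and 20.1% of all genes (median log2 fold change -0.05). Haus8, a subunit of the augmin complex that branches new microtubules off older ones, rose from 3.92 ± 0.274 to 7.43 ± 0.279 CPM (log2 fold change 0.92, edgeR adjusted p = 3.50e-04). Tubgcp6, a subunit of the gamma tubulin ring, stood at 13.9 ± 0.881 CPM with oil and 10.98 ± 1.28 CPM with CCl4 (-0.34, edgeR adjusted p = 0.0294), and its call was lost without control replicate 2 or 3 or CCl4 replicate 2 or 3. Leaving out control replicate 1 or 3 or CCl4 replicate 1 or 2 left 1 gene higher, and leaving out control replicate 2 or 3 or CCl4 replicate 2 or 3 left 1 lower. DESeq2 called 2 higher and 0 lower, and library size alone gave 3 higher and 0 lower.

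Of 27 tested regulators of microtubule dynamics, 9 were called higher, 5 lower and 13 in neither direction. The shares were 33.3% higher and 18.5% lower, beside 21.2% and 20.1% of all genes, with a median log2 fold change of 0.11. Stmn1, stathmin, which binds free tubulin and promotes disassembly, stood at 4.26, 5.13 and 4.08 CPM in controls and at 35.3, 43.0 and 24.8 CPM in CCl4 livers. Its log2 fold change was 2.93 (SE 0.23, edgeR adjusted p = 1.47e-04). Kif2c, a mitotic kinesin that depolymerises microtubule ends, averaged 0.517 ± 0.0328 CPM with oil and 7.65 ± 3.12 CPM with CCl4 (log2 fold change 3.87, SE 0.41). Mapre1, the plus-end protein EB1, rose by 0.26, and Map7, which links microtubules to kinesin-1, changed by -0.40. With library size alone 11 of these genes were higher and 1 lower, and without CCl4 replicate 1 the lower genes were 3.

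Of 21 tested motor genes, 3 were called higher, 4 lower and 14 in neither direction, or 14.3% and 19.05% beside 21.2% and 20.1% of all genes (median log2 fold change -0.06). Kif1b, a kinesin that moves vesicles and mitochondria, averaged 251 ± 23.2 CPM with oil and 143 ± 2.51 CPM with CCl4, a log2 fold change of -0.81 (SE 0.07, edgeR adjusted p = 4.08e-05). Kif1c, its relative, had a log2 fold change of -0.48. Dynll1, a light chain of dynein and of other complexes, rose from 11.6 ± 2.38 to 35.5 ± 5.89 CPM (log2 fold change 1.62). With library size alone 6 motor genes were higher. Among 15 genes of actin, actin regulation, intermediate filaments and the lamina, 12 were called higher and 0 lower (median log2 fold change 0.30), with 21.2% of all genes higher. Lmna, the A-type lamin, rose by 0.95, Tmsb4x, which binds monomeric actin, by 1.16, and Capg, which caps actin filaments, by 3.10. The keratins of hepatocytes were not called, with log2 fold changes of 0.11 for Krt8 and 0.10 for Krt18.

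**Figure D5:**
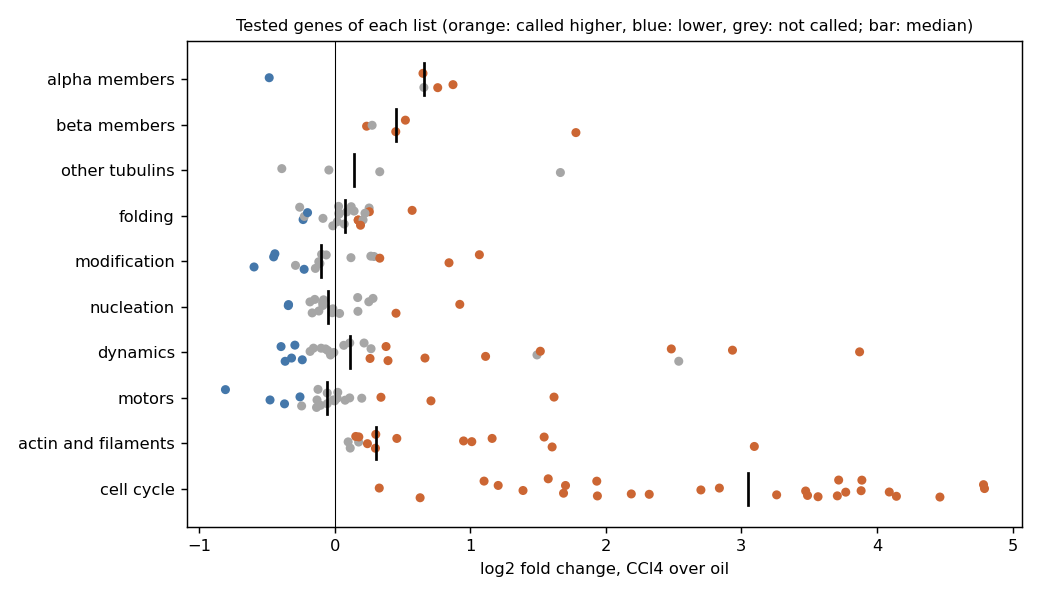
Log2 fold change of every tested gene in each list, with the list's median as a bar. The alpha and beta members have medians of 0.66 and 0.45, the folding, modification, nucleation, dynamics and motor lists have medians between -0.10 and 0.11, and the cell cycle list has a median of 3.05.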

How the data were processed

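Liver RNA of 3 oil and 3 CCl4 libraries was sequenced. Per the submitters' processing notes and the series' design text, reads were freed of adapters and of low quality, aligned with HISAT2 and counted per gene with featureCounts. The sources used here give no versions, genome build, annotation, strand setting or treatment of multi-mapping reads. The deposited values are raw counts. The 443 rows without an Ensembl identifier (numbered loci) held 0.543 to 0.679% of the counts and stayed in the fit. Symbols, exon lengths and transcript windows came from GENCODE M21 (52083 identifiers matched), promoters from RefSeq.

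The test was that of edgeR 4.0.16 under R 4.3.3 (filterByExpr, TMM, glmQLFit with robust estimation, glmQLFTest, Benjamini-Hochberg over 15579 genes). It was also run on simulated counts with far fewer changed genes than were called here, which cannot show how it performs on these data. CPM values use TMM-scaled library sizes. Pools and shares were tested with exact permutation tests (scipy 1.17.1). Alternatives were other scalings, no filter, a stricter filter, DESeq2 1.42.0, limma-voom (limma 3.58.1), a replicate block and each library left out. No libraries of a group agreed within counting error (chi-square per gene 5.77 to 26.2).

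The members, lists and tests were chosen with earlier results of these data known. Named genes were all members and, from each list, the called genes of smallest adjusted p, highest mean CPM and largest change in each direction, with Mki67, Stmn1 and Tubb1. For the 3 members of smallest adjusted p, the 3 closest genes were named. Stk16, Tubb4b-ps1, Tubg1, Tubd1, Tubb3, Tubb4a, Mbp, Snap25, Kif5a, the hepatocyte genes, Krt8 and Krt18 were named after their values were seen. So were Arl2 and Ttc5. Of the marker lists, platelet markers (6 listed, 3 tested) gave 1 higher and 0 lower, at 5.35 to 6.49 CPM summed in controls and 6.83 to 8.21 in CCl4 livers.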

Additional observations from a re-analysis of the deposited data

How the results depend on the processing

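Over 14 alternatives, 5 to 7 isotypes were called higher and 1 lower. Tuba1b, Tuba1c, Tuba4a, Tubb4b, Tubb5 and Tubb6 kept direction and call in all 14. Tuba1a lost its call in 3 and Tubb2a in 4, each with a library left out (without control replicate 3 or CCl4 replicate 2 both were lost, leaving 5). Tubb2b was not called and ran from -0.14 (without CCl4 replicate 1) to 0.90 (without control replicate 2); the cause was not tested. Tubg1, not called, turned to 0.043 and 0.10 with upper quartile scaling and library size alone. Of the other named genes, Cct4, Pfdn2 and Tubgcp6 kept their calls in 8, 7 and 7 of the 14, and Stk16 in only 2. Tubd1, Tubb4a, Mbp, Krt8 and Krt18 were called in some settings. Library size alone moved the median of all genes to 0.147, gave 4824 genes higher and 1676 lower in place of 3303 and 3124, and set the alpha pool at 0.24 and the beta pool at 0.62. Upper quartile scaling gave 4103 higher and 2177 lower and an alpha pool of 0.18. Length scaling put the alpha pool at 0.27 and the beta to alpha ratio at 0.17. Shares of counts put the Tuba1c difference at 10.6 points in place of 8.72. The causes were not tested. Over the alternatives the folding list had 1 to 13 higher and 0 to 3 lower, modification 1 to 4 and 3 to 4, nucleation 1 to 3 and 0 to 2, dynamics 8 to 11 and 1 to 6, motors 3 to 6 and 3 to 5, and other tubulins 0 to 1 higher. Same-numbered libraries correlated in their deviations at 0.071, 0.028 and 0.109, not all above 0.1, so numbers were not taken as pairs. With the replicate block 7 isotypes were higher and 1 lower, 3298 and 3118 of all genes, and the folding list had 2 higher. Tuba1a, Tuba8 and Tubb2b had the fewest counts of the members, 692, 400 and 281 in all.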
